A study of Mus musculus with 6 samples.

Results

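Kinesins, cytoplasmic dynein and the dynactin complex were read in left and right cervical motoneurons of the mouse embryo. The members are all probe sets annotated to a single gene whose symbol begins Kif with a number, Klc with a number, Dync1, Dynll, Dynlt, Dynlrb or Dctn with a number. This gave 139 probe sets for 57 genes, of 45037 probe sets on the array without controls. GFP-positive regions were laser-captured on both sides of the cervical spinal cord of HB9::GFP transgenic embryos at E11.5, in 3 littermates, which gave 3 left and 3 right pools, each hybridised to 1 Affymetrix array. Both pools of an embryo came from the same sections, and no pool received a treatment. The GFP transgene of all 6 pools is driven by the promoter of Hb9 (Mnx1), a motoneuron transcription factor, so a pool holds the marked region with any other cell lying in it. The comparison asked whether the RNA of any motor differed between the left and the right side.

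Kinesins and dynein move along microtubules at the cost of ATP. In an axon, most kinesins carry vesicles, mitochondria and newly made proteins from the cell body towards the growth cone, and cytoplasmic dynein, with its cofactor dynactin, carries endosomes and survival signals back to the cell body. A second set of kinesins works in the mitotic spindle: they slide or shorten spindle microtubules, move chromosomes and complete cytokinesis. Motoneurons have left the cell cycle, whereas the progenitors beside them divide. The genes were therefore read in 5 groups, with 18 genes of axonal transport kinesins and kinesin light chains, 11 genes of mitotic kinesins, 11 other kinesins, 11 dynein subunits and 6 dynactin subunits.

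Most mitotic kinesins held the same letters in their promoters, which the choice of members did not use. The cell cycle homology region is a short element of genes that are transcribed in late cell cycle, and the CCAAT box is a common promoter element that often lies near it. RefSeq (GRCm38.p6) gave windows of 250 bases before to 50 bases after the start for 47 of the 57 genes, and both strands were searched. Either TTTGAA or TTCGAA, the letters of the cell cycle homology region, occurred for 9 of 10 mitotic kinesins (all but Kif18a), for 3 of 10 other kinesins, for 2 of 4 dynactin subunits, for 1 of 14 transport kinesins, for 0 of 9 dynein subunits and for 21.7% of all 27025 genes with a window. The CCAAT letters occurred for 6 of 10 mitotic kinesins, 3 of 4 dynactin subunits, 5 of 10 other kinesins, 5 of 14 transport genes and 2 of 9 dynein subunits, beside 41.1% of all genes. The 110 bases before the start are shown for 3 mitotic kinesins, because their distance to the start differs, and for Klc1, as a transport gene with neither set of letters in this stretch. The 3 are not typical of the group. Kif15 also held TTCAAA in this stretch, but Kif4, Kif14, Kif18a, Kif18b, Kif20b and Kif23 held no cell cycle homology letters there. Capitals mark TTCAAA, which is TTTGAA on the other strand, and ATTGG, which is CCAAT on the other strand.
Kif11: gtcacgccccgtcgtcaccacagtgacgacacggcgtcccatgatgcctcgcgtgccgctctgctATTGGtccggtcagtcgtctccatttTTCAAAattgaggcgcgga
Kif22: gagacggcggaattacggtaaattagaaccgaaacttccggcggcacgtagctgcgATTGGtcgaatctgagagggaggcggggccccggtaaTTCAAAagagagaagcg
Kif2c: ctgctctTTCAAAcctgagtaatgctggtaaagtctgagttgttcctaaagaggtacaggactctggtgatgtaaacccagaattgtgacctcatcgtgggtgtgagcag
Klc1: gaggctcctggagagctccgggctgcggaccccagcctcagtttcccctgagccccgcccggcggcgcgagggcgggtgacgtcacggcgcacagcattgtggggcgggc
These stretches lie at chr19:37376272-37376381 (plus strand) for Kif11, chr7:127042421-127042530 (minus strand) for Kif22, chr4:117178773-117178882 (minus strand) for Kif2c and chr12:111758758-111758867 (plus strand) for Klc1. The marked TTCAAA began 19 bases before the start of Kif11 and 17 before that of Kif22, but 103 before that of Kif2c. A match describes only the letters in the window.

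The pools carried the markers of their label. Mnx1 read 3520.0 to 5219 over the 6 pools, Isl1 3771 to 5991 and Slc18a3, the vesicular acetylcholine transporter, 1304 to 1866. Lhx3 read 2909 to 3847, Isl2 1182 to 1784 and Slc5a7 274 to 957. Chat read 198 to 467, with its left pool of embryo 3 below 200. The summed signal of 7 motoneuron markers, of 8 listed, was 14116 to 19209 on the left and 13976 to 18635 on the right. Markers of other cells were present too: 9 mesenchymal markers summed to 1411 to 2629 on the left and 2518 to 17954 on the right, and 16 markers of dividing cells to 5346 to 8006 on the left and 5824 to 11033 on the right. Both upper ends belonged to the right pool of embryo 1, which also had the highest ratio of 3′ to 5′ actin signal (2.51, against 1.90 to 2.24 in the other pools). No marker of these lists was listed at 0. All signals are in the units of the MAS5 algorithm, which scales each array to a trimmed mean of 500; they are comparable between pools for one probe set but not between probe sets.

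A probe set was tested when its highest signal over the 6 pools reached 200, which held for 91 of the 139 members, for 42 genes, and for 21853 probe sets in all. The transport kinesins, dynein and dynactin had few untested genes. Tested were 17 of 18 transport genes (all but Klc3), 10 of 11 dynein genes (all but Dynlrb2) and 6 of 6 dynactin genes, and signals reached 200 in all 6 pools on at least 1 probe set for 14, 10 and 6 of them. Of the mitotic kinesins, 6 of 11 genes were tested, beside 10539 of all 18193 genes with a probe set of their own. By probe set it was 8 of 24, beside 21853 of 45037. Kif22 alone reached 200 in all 6 pools, and the other tested mitotic kinesins sat near the limit. Kif14, Kif15, Kif18a, Kif20a and Kif23, which act in the spindle or in cytokinesis, were below 200 in every pool on every probe set. Of the other kinesins, Kif2a, Kif26a and Kif26b were tested, and Kif6, Kif7, Kif9, Kif12, Kif24, Kif27, Kif28 and Kif2b were not. Among the 91 tested members, 3 probe sets reached 200 on the right side only and 3 on the left side only. Over all 21853 tested probe sets these counts were 1497 and 1207.

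No motor gene passed the test for a difference between left and right. Right was divided by left within each embryo and brought to the log2 scale, log2(R/L), and the ratios were tested with limma, with side and embryo as terms and p-values adjusted over all 21853 probe sets. By this test 0 of 91 members had an adjusted p under 0.05, as did 0 of all tested probe sets (0%), and the smallest adjusted p among the members was 0.974. At an unadjusted p under 0.05 there was 1 member probe set, of Kif2c, against 3.40% of all tested probe sets. The fold rule of the study's methods asks for the same direction in all 3 embryos and for a change beyond 1.5-fold (0.58 on the log2 scale) on average and in at least 2 embryos. It held for 1 member higher on the right, the same probe set of Kif2c, against 2.40% of all tested probe sets, and for 0 members higher on the left, against 1.55%. Right was above left in all 3 embryos for 10 of the 91 members, beside 12.7% of all tested probe sets, and left above right for 8, beside 10.8%. The left and right signals did not overlap for 3 members, beside 5.43%. Without embryo 1, the fold rule held for 0 members in either direction and limma again gave 0 by adjusted p. With 3 embryos, limma works with few degrees of freedom, and a sign-flip test of a single gene cannot give a p below 0.25.

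The heavy chains of kinesin-1, the main anterograde motor of axons, were close to even. Kif5a, the neuronal heavy chain mutated in hereditary spastic paraplegia, read 5055, 5014 and 4154 in the left pools of embryos 1, 2 and 3 and 5462, 5624 and 4252 in the right pools. Its right pool was the higher in each embryo, with ratios of 0.11, 0.17 and 0.034, but the sides overlapped and the mean of 0.10 ± 0.066 (SD, n = 3) had a 95% interval of -0.18 to 0.39. Kif5c, a heavy chain enriched in motoneurons, read 24608, 25351 and 28442 in the left pools and 29529.8, 25506 and 27132 in the right ones. Here the ratio was 0.26 in embryo 1 and 0.0088 and -0.068 in embryos 2 and 3, so that no direction was shared (mean 0.068, interval -0.17 to 0.30). Kif5b, the ubiquitous heavy chain, read 4035, 3424 and 3342 (left) and 4398, 3823 and 3120.4 (right), with a mean ratio of 0.062 (-0.25 to 0.37).

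The kinesin light chains, which join kinesin-1 to its cargo, were read by Klc1 and Klc4. Klc1 gave the value nearest to 0 of the named members, with 22239, 20742 and 19316 in the left pools and 22944, 20849 and 18648 in the right ones. Its ratios of 0.045, 0.0074 and -0.051 averaged 0.00057 (-0.22 to 0.22). Klc4 read 1092, 1111 and 1182 in the left pools and 927, 1549 and 1193 in the right ones, with ratios of -0.24, 0.48 and 0.014 and a mean of 0.086 (-0.37 to 0.54). Klc2 has no probe set of its own in the annotation used here.

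Kinesin-2 motors carry vesicles in axons and build cilia. Kif3a, its common subunit, read 4321, 3637 and 4185 in the left pools and 3909.5, 4229.6 and 4638 in the right ones, with a mean ratio of 0.074 (-0.24 to 0.39). For its partner Kif3b the pools held 1516, 1261 and 1549 (left) and 2103, 2100.4 and 1317 (right). The right pool was the higher in embryos 1 and 2 (ratios 0.47 and 0.74) and the lower in embryo 3 (-0.23), with a mean of 0.32 and an interval of -0.15 to 0.80. The other partner, Kif3c, which is largely neuronal, gave opposite answers on its 2 probe sets. The brighter one read 3105, 3629 and 2292 in the left pools and 2142, 2832 and 2321 in the right ones (mean -0.29, interval -0.66 to 0.073), and the dimmer one 1921, 2454 and 2402 in the left and 3216, 3115 and 2427 in the right pools (mean 0.37, interval -0.028 to 0.76). Kif17, the homodimeric kinesin-2 of dendrites, averaged -0.11 (-0.90 to 0.69).

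Kinesin-3 motors carry synaptic vesicle precursors, mitochondria and endosomes. Kif1a, the precursor carrier, read 1432, 783 and 964 in the left pools and 1290.1, 1269 and 1027 in the right ones. Embryo 2 alone set its mean of 0.21 (-0.27 to 0.69), with a ratio of 0.70 there, and without embryo 2 the mean was -0.029. Kif1b, which carries mitochondria and vesicle precursors, read 12415, 12975 and 11509.6 (left) and 11599, 12337 and 12013 (right), close to even at -0.036 (-0.28 to 0.21). Kif13b had a lower left pool in embryo 2 than anywhere else (left 964, 620.3 and 1014, right 825, 1371 and 869), which gave ratios of -0.23, 1.14 and -0.22. Kif13a, a carrier of endosomes, was lower on the right in all 3 embryos by small amounts (-0.23, -0.034 and -0.074). Kif16b averaged -0.15 and Kif1c -0.55, both with signals below 200 in some pools. The kinesin-4 motors Kif21a and Kif21b, which restrain microtubule growth in axons and dendrites, averaged -0.14 (-0.45 to 0.18) and 0.10 (-0.22 to 0.43).

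**Figure D1:**
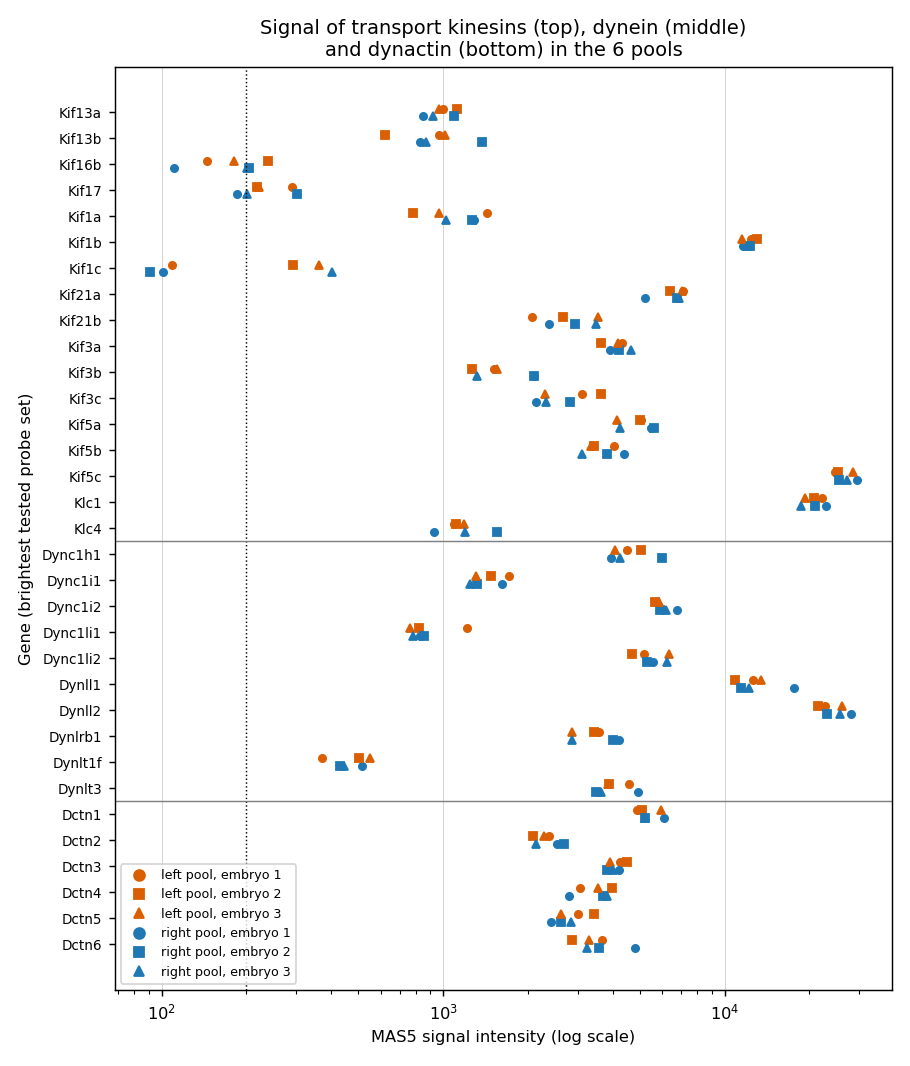
MAS5 signal (log axis) of the brightest tested probe set of each transport kinesin, light chain, dynein and dynactin gene, with 1 point per pool (orange left, blue right, marker shape for the embryo) and a dotted line at the limit of 200. Left and right points lie close together for Klc1 and Kif1b and farther apart in embryo 2 for Kif1c (293 and 90.9) and Kif13b (620.3 and 1371), and the sides do not overlap only for Dync1i2. Positions of different genes are not comparable.

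Over the 17 transport genes, each read by its brightest tested probe set, the median of the mean ratios was 0.062, and 10 lay above 0. The medians were -0.14, 0.14 and -0.031 in embryos 1, 2 and 3, so that no direction was shared by all 3, and over all 10539 tested genes the median was 0.013. Under scaling to the array medians, which moved the median of all probe sets from 0.016 to -0.070, the transport median was -0.025. Of the members named here, Kif3a, Kif5b, Kif5c, Klc1, Dync1h1, Dync1li2 and Dctn1, with means of at most 0.081 in size, had the other sign under that scaling, and Klc1 also under quantile normalization. Without embryo 1, whose right pool stood apart in the markers, the median was 0.030 for transport kinesins, 0.044 for dynein and -0.037 for dynactin. The range over the 17 genes was -0.55 (Kif1c) to 0.32 (Kif3b).

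Mitotic kinesins spread far more than the transport motors, and embryo 1 stood apart. The 2 groups also differed in signal. The signal limit was reached in every pool by 1 of 8 tested mitotic probe sets, against 35 of 46 of the transport genes. Whether the spread differed at equal signal was not tested. The median size of log2(R/L) over the 8 tested mitotic probe sets was 1.47 in embryo 1, 0.80 in embryo 2 and 0.17 in embryo 3, where all tested probe sets gave 0.40, 0.33 and 0.14. By gene, 5 of 6 were higher on the right in embryo 1 (median 1.47), 2 of 6 in embryo 2 (median -0.51) and 1 of 6 in embryo 3 (median -0.25). The median of the 6 means was 0.23, and without embryo 1 it was -0.31.

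Kif22, a chromokinesin that pushes chromosome arms to the spindle equator, was the one mitotic member with at least 200 in every pool. It read 476, 719 and 1368 in the left pools and 1593, 984 and 1215 in the right pools. The left pool of embryo 1 was the lowest and the right pool of embryo 1 the highest, which gave ratios of 1.74, 0.45 and -0.17. The mean of 0.68 ± 0.98 (SD, n = 3) had a limma interval of -0.063 to 1.41, with an unadjusted p of 0.068 from limma and an adjusted p of 0.974.

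Kif2c, which removes wrongly attached microtubules from kinetochores, supplied the 1 probe set that met the fold rule. That probe set read 74.9, 8.07 and 196 in the left pools and 288, 117 and 198 in the right ones. The right pool of embryo 1 was the sole signal over 200, the left pool of embryo 2 was far below the other 5, the sides overlapped, and embryo 3 was even (0.019). Its mean was 1.94 (0.13 to 3.75), with an unadjusted p of 0.039 from limma and an adjusted p of 0.974. With 50 added to each signal the mean was 0.99, and without embryo 2 it was 0.98. The other 2 tested probe sets of Kif2c, with means of -0.19 and -0.041, did not share this direction. The brighter of them read 113, 305 and 220.2 in the left pools and 260.2, 96.5 and 202 in the right ones.

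Among the remaining mitotic kinesins, a single low pool often made the ratio. Kif20b, a motor of late cytokinesis, read 15.9, 422 and 350.1 in the left pools and 443, 251 and 394 in the right ones. Its left pool of embryo 1 was far below the other 5, the ratios were 4.80, -0.75 and 0.17, and the mean of 1.41 had an interval of -0.61 to 3.43 and was -0.29 without embryo 1. For Kif4, a chromokinesin, the pools held 60.2, 228 and 112 (left) and 224, 126 and 89.2 (right), again with a low left pool in embryo 1 (ratios 1.90, -0.85 and -0.33), and its mean of 0.24 was -0.59 without that embryo. Kif11, the motor that pushes spindle poles apart, went the other way, with 150.3, 192 and 276 in the left pools and 119, 159 and 211 in the right ones. It was lower on the right in all 3 embryos by similar amounts (-0.34, -0.27 and -0.39), but its interval of -1.18 to 0.51 was wide, since limma gives dim probe sets a larger variance. Kif18b, which shortens astral microtubules, had ratios of 0.11, 1.10 and -0.56.

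**Figure D2:**
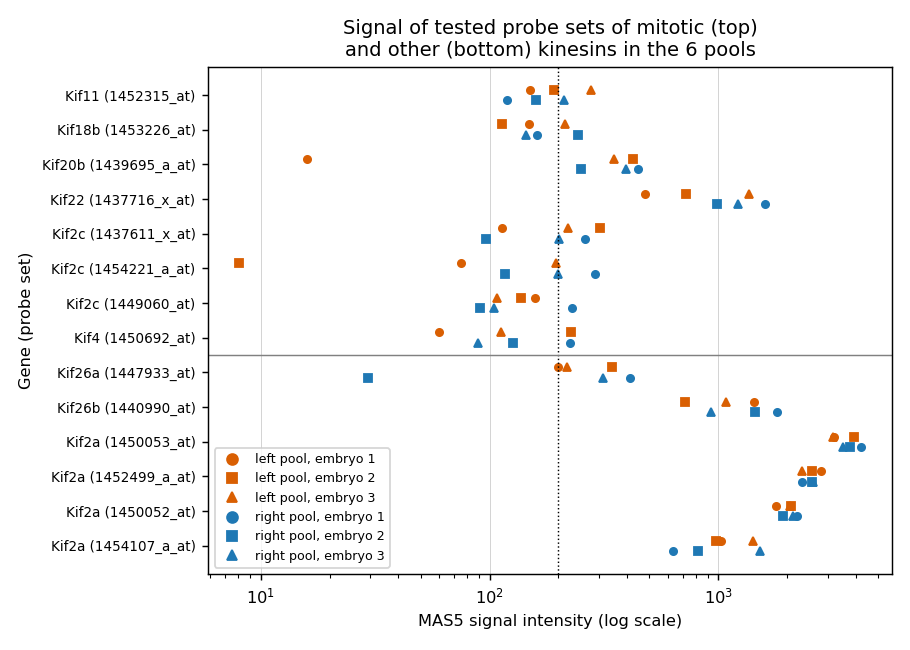
MAS5 signal (log axis) of every tested probe set of the mitotic kinesins (top) and of the other kinesins (bottom) in the 6 pools, with orange for left, blue for right, marker shape for the embryo and a dotted line at 200. The mitotic points straddle the limit except those of Kif22, which lie above it. Single low left pools stand out for Kif20b (15.9, embryo 1) and Kif2c (8.07, embryo 2).

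Markers of dividing cells had their highest ratios in the same embryo as the mitotic kinesins. Of 16 measured markers, 15 were higher on the right in embryo 1 (median 1.20), 8 in embryo 2 (median -0.034) and 6 in embryo 3 (median -0.084). In embryo 1 their summed signal was 5346 in the left pool and 11033 in the right one. Mki67, a marker of cycling cells, read 1712, 1998 and 2097 in the left pools and 3480.2, 1401 and 2104 in the right ones, with the right pool of embryo 1 the highest. The summed signal of 7 neural progenitor markers was 8765 to 15607 on the left and 10896 to 15263 on the right. Of these, 7 were higher on the right in embryo 1 (median 0.46), 4 in embryo 2 (median 0.017) and 3 in embryo 3 (median -0.11). In all 3 embryos 3 of 7 were higher on the right, beside 1313 of all 10539 tested genes. Pax6 and Notch1 met the fold rule higher on the right (means 0.97 and 0.65), as did 219 of all tested genes. Hes5 and Fabp7 had means below 0 (-0.54 and -0.024). The mesenchymal markers had medians of 3.23, 1.07 and 0.012 in embryos 1, 2 and 3. The fold rule, higher on the right, held for 4 of 9, beside 219 of all 10539 tested genes. Among the 4, Col5a1 and Meox2 had low left pools (18.2 to 63.2 and 4.14 to 14.1). The part of these cells in the ratios of the mitotic kinesins was not tested. In pooled tissue, fewer cells of a type and less RNA per cell cannot be told apart.

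**Figure D3:**
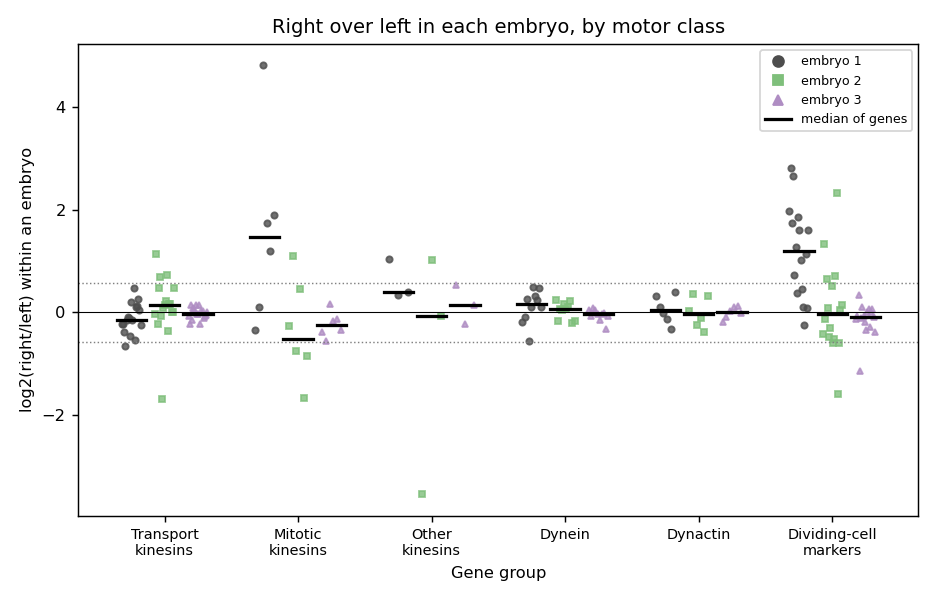
Right over left ratio (log2) of each gene in each embryo, by motor group and for markers of dividing cells, with 1 point per gene, black bars for the median of the genes and dotted lines at 1.5-fold (0.58 on the log2 scale). The mitotic kinesins and the markers of dividing cells lie high in embryo 1 (medians 1.47 and 1.20). In embryo 3 their medians are -0.25 and -0.084, with 1 of 6 mitotic kinesins above 0. The medians of dynein are 0.17, 0.066 and -0.027 in embryos 1, 2 and 3, and those of dynactin 0.039, -0.036 and 0.0058.

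The other kinesins had 3 tested genes. Kif2a, a microtubule depolymerase that limits axon collaterals, read 3195, 3933 and 3182 in the left pools and 4217, 3769 and 3496 in the right ones (mean 0.16, interval -0.17 to 0.49). Its 4 tested probe sets ran from -0.29 to 0.16. Kif26b, an atypical kinesin, read 1425, 716 and 1084 (left) and 1807, 1453 and 931 (right), with ratios of 0.34, 1.02 and -0.22. Its relative Kif26a had 1 right pool far below the rest, 29.5 in embryo 2 against 199 to 411 in the other 5, and so a mean of -0.65 with an interval of -2.42 to 1.11. Without embryo 2 that mean was 0.78. Together the 3 genes had a median of 0.16, which was 0.037 without embryo 1, 0.27 without embryo 2 and -0.023 with the average over each gene's probe sets.

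Dynein subunits showed the smallest spread between embryos of the 5 groups. Over 18 tested probe sets the median SD of log2(R/L) was 0.21, beside 0.25 for dynactin, 0.39 over all tested probe sets and 1.20 for the mitotic kinesins. The groups also differed in signal. The signal limit was reached in every pool by 17 of 18 dynein and 13 of 13 dynactin probe sets, but by 1 of 8 mitotic ones. Whether the spread of dynein differed from that of other probe sets at equal signal was not tested. Dync1h1, the heavy chain with the motor domain, read 4491, 5052 and 4079 in the left pools and 3959, 5986 and 4237 in the right ones. The right pool was the lower in embryo 1 and the higher in the other embryos (-0.18, 0.24 and 0.055; mean 0.039, interval -0.28 to 0.35). Dync1i2, an intermediate chain that holds the cargo-binding subunits, read 5645, 5632 and 5819 in the left pools and 6786, 5882 and 6190.4 in the right ones. Its sides did not overlap, but the ratios of 0.27, 0.063 and 0.089 were small and the mean of 0.14 ± 0.11 (SD, n = 3) had an interval of -0.14 to 0.42. The neuronal intermediate chain Dync1i1, in contrast, read 1711, 1481 and 1304 (left) and 1619, 1321 and 1245 (right), lower on the right in each embryo by a little (-0.079, -0.17 and -0.067).

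The light intermediate chains, which bind cargo adaptors, gave means of -0.15 for Dync1li1 and 0.081 for Dync1li2. The first rested on embryo 1, where the left pool was 1213 and the other 5 pools 762 to 851. Among the light chains, Dynll1 read 12592, 10919 and 13496 in the left pools and 17679, 11454 and 12157 in the right ones, with the right pool of embryo 1 the highest. Its mean was 0.14 (-0.18 to 0.45), and all 4 of its tested probe sets had a mean above 0, from 0.026 to 0.23. Dynll2 averaged 0.13 (-0.10 to 0.37) and Dynlrb1, a roadblock light chain, 0.15 (-0.16 to 0.46). Dynlt3, a Tctex-type light chain, had 4 tested probe sets with means below 0, from -0.41 to -0.044. A probe set shared by Dynlt1a, Dynlt1b, Dynlt1c and Dynlt1f, which is not counted as a member because it names several genes, read 6190.1, 6005 and 5425 (left) and 8249.9, 4918 and 5895 (right), with no common direction. Over the 10 dynein genes the median was 0.060, and -0.026 under scaling to the array medians.

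Dynactin, which makes dynein processive and links it to cargo, had ratios near 0 as well. Dctn1, the p150 subunit that binds dynein and microtubules, read 4861, 5088 and 5925 in the left pools and 6095, 5193 and 5226 in the right ones (ratios 0.33, 0.029 and -0.18; mean 0.058, interval -0.26 to 0.38). Dctn2, known as dynamitin, averaged 0.12 (-0.24 to 0.48), and Dctn3, its neighbour in the shoulder of the complex, -0.078 (-0.38 to 0.23). The pointed-end subunits had opposite signs: Dctn4 averaged -0.042, Dctn5 -0.20 and Dctn6 0.23. Dctn6 read 3665, 2866 and 3283 in the left pools and 4804, 3569 and 3246 in the right ones, higher on the right in embryos 1 and 2 (interval -0.099 to 0.56). Dctn5 read 3022, 3421 and 2623 (left) and 2412, 2619 and 2845 (right), lower on the right in the same embryos (interval -0.56 to 0.16). Over the 6 dynactin genes the median was 0.0083, and -0.078 under scaling to the array medians.

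How tightly these values bound a left to right difference can be read from the intervals. The 95% interval of log2(R/L) lay wholly within 1.5-fold for 41 of 91 member probe sets (45.1%), beside 26.9% of all tested probe sets. The share was 77.8% for dynein (14 of 18), 61.5% for dynactin (8 of 13), 34.8% for transport kinesins (16 of 46) and 0 of 8 for mitotic kinesins. By gene, on the brightest probe set, it was 25 of 42, with 8 of 10 dynein genes, 6 of 6 dynactin genes, 10 of 17 transport genes and 0 of 6 mitotic genes. The fit gives brighter probe sets smaller variances, so these counts follow the signal as well as the spread. The 41 became 21 when the variances were fitted without that trend, where the share of all tested probe sets was 15.3%. They became 25 without embryo 2 (15.1% of all) and 11 without embryo 3 (6.57% of all). For the gene counts, no share over all genes was taken.

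**Figure D4:**
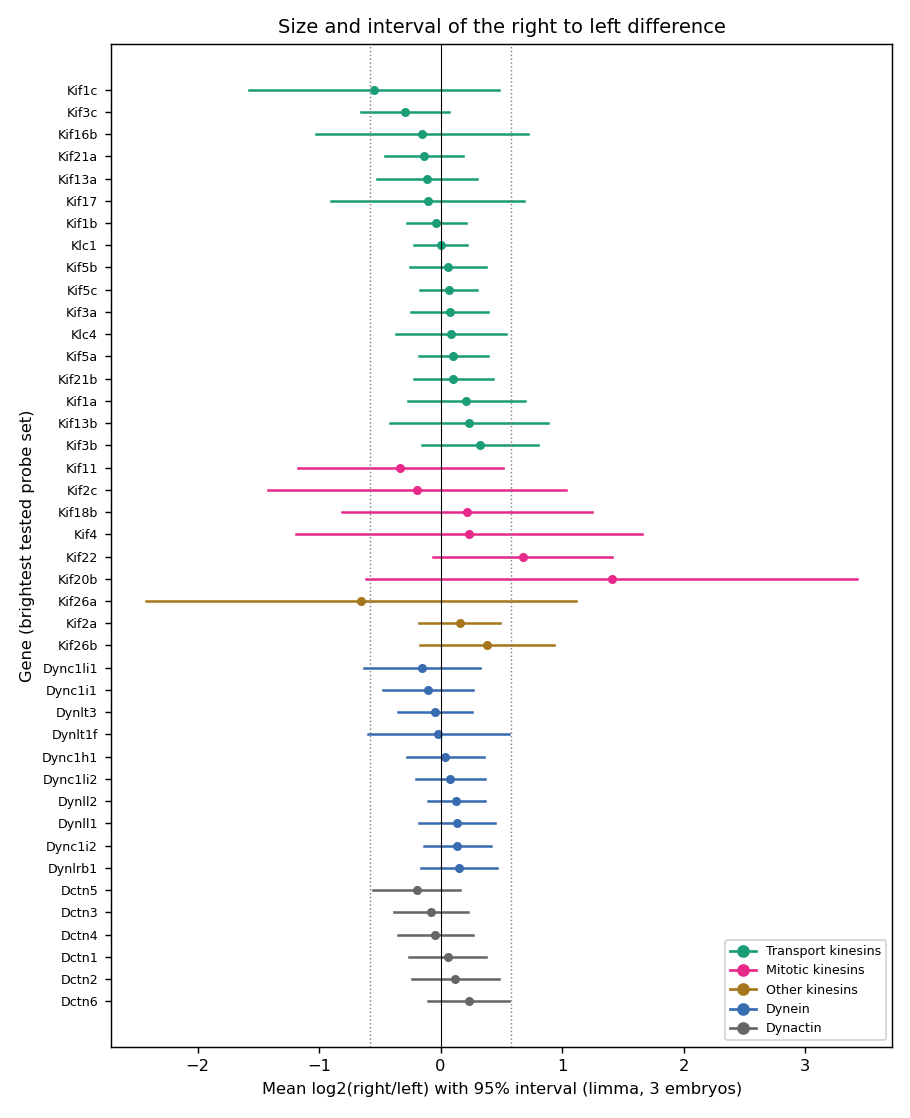
Mean log2(right/left) over 3 embryos (points) with its 95% interval from limma (bars) for the brightest tested probe set of each of 42 motor genes, coloured by group, with dotted lines at 1.5-fold (0.58). All 42 intervals include 0. Those of dynactin, Klc1, the kinesin-1 heavy chains and 8 of 10 dynein genes lie within the dotted lines. Dync1li1 (-0.63 to 0.32) and Dynlt1f (-0.60 to 0.56) cross the lower line, and the mitotic kinesins have wide intervals.

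Probe sets of one gene did not always give one direction. Of 24 genes with several tested probe sets, 15 had means on both sides of 0 and 9 on one side, and 18 genes had a single tested probe set. For Kif1b, 6 probe sets ran from -0.37 to 0.61, around -0.036 on the brightest. One of the dimmer ones read 291, 787 and 764 in the left pools and 688, 862 and 948 in the right ones, higher on the right in all 3 embryos (mean 0.56, interval -0.026 to 1.15). For Kif1c the tested probe sets gave -0.55 and 1.05, from signals that ran from 63.6 to 402 over both. Kif5b had 5, from -0.43 to 0.13. The lowest read 528, 848 and 643 in the left pools and 495, 462 and 514 in the right ones without overlap, in the opposite direction to the brightest probe set of the gene. For Kif3a, 2 of 4 probe sets were lower on the right in each embryo (means -0.38 and -0.17), and for Kif5c 1 of 3 was higher in each, with 1367, 1430.0 and 1144 in the left pools and 1596, 1675 and 1299.9 in the right ones (mean 0.21). Dctn4 had 5, from -0.41 to 0.30, of which 1 had sides that did not overlap (left 1442, 1354 and 1232, right 866, 1039 and 1219.6).

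**Figure D5:**
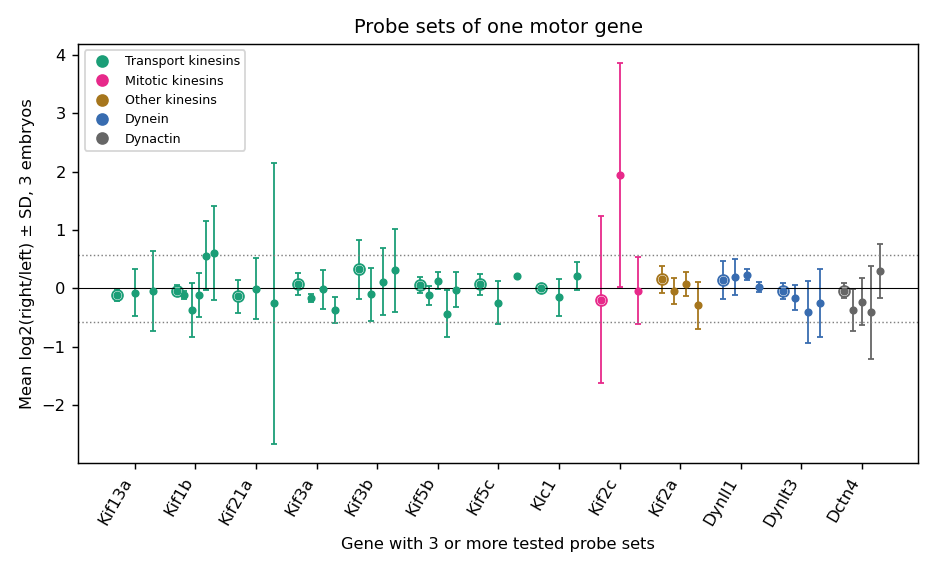
Mean log2(right/left) with the SD over 3 embryos for each tested probe set of the motor genes with 3 or more of them. The ringed point is the brightest probe set of the gene, colours mark the groups and dotted lines 1.5-fold (0.58). The probe sets of Dynll1 all lie above 0 and those of Dynlt3 all below, while those of Kif1b and Dctn4 lie on both sides.

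The pools also differed between littermates. Both pools of embryo 1 lay above the other 4 pools for 6 of 42 genes (14.3%, and 11% of all tested genes) and below them for 5 (11.9% and 10.9%). In embryo 3 this held for 4 genes above (9.52% and 12.4%) and 6 below (14.3% and 13.7%), and in embryo 2 for 3 above (7.14% and 8.42%) and 1 below (2.38% and 8.74%). Klc1, Kif5b and Dync1i1 were highest in both pools of embryo 1 and lowest in both pools of embryo 3. Kif21b ran the opposite way, with 2064, 2672 and 3558 in the left pools and 2376, 2946 and 3482 in the right ones. Kif5a, Dync1li1 and Dynlrb1 were lowest in both pools of embryo 3, and Dync1h1 and Kif13a were highest in both pools of embryo 2.

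The partners of the motors were read as a list of 38 genes outside the rule, of which 30 were tested. By limma 0 of the 30 had an adjusted p under 0.05 and 0 an unadjusted p under 0.05, and 0 met the fold rule in either direction. Their median was -0.080, with 9 means above 0 and 21 below. Over all 10539 tested genes the median was 0.013, with 5494 means above 0 and 5045 below. In all 3 embryos, 4 of the 30 were lower on the right and 1 higher, beside 1139 and 1313 of all tested genes. Kifap3, the cargo-binding partner of Kif3a and Kif3b, was among the 4, with 11524, 12074 and 11763 in the left pools and 10768, 9341 and 10606 in the right ones. Its ratios were -0.098, -0.37 and -0.15 and its mean -0.21 (-0.46 to 0.051). Spag9 and Hook3, adaptors of kinesin-1 and dynein, were lower on the right in each embryo too, with means of -0.098 and -0.099. Rhot1, which ties both motors to mitochondria, read 3146, 2369 and 2350.2 in the left pools and 1329, 2436 and 2265 in the right ones, with a low right pool in embryo 1 and a mean of -0.42 (-0.98 to 0.14). Pafah1b1 and Ndel1, regulators of dynein, averaged -0.063 and -0.27, and Actr1a, which forms the dynactin filament, -0.0049.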

How the data were processed

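RNA of 6 laser-captured pools (left and right of 3 littermates) was amplified by the authors, marked with biotin and read on Affymetrix arrays. The deposited signal intensities are the authors' MAS5 values from Affymetrix Expression Console (version not given in the sources used). The values are linear, with a mean of 500 after trimming 2% at each end and medians of 99.9 to 118. Detection calls were not used here, so the authors' filter on present calls was not repeated. The number of arrays limits the precision.

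Of 45101 probe sets, 64 controls were left out, and genes were taken from the platform annotation. Among the others, 34945 name 1 gene, 932 several and 9160 none, and 4 that name a motor gene together with other genes are no members. Probe sets with a highest signal of at least 200 were tested, on log2 intensity computed from the deposited values with no added constant. limma 3.58.1 in R 4.3.3 was fitted to all 21853 with side and embryo as terms and a trend of the variance on the mean signal, and p-values were adjusted by the method of Benjamini and Hochberg (threshold 0.05). The pairing comes from the design, since both pools of an embryo are from the same sections. After removal of side means, left and right correlated at 0.241 in embryo 1, 0.215 in embryo 2 and 0.495 in embryo 3. A gene was read by its brightest tested probe set. Members, groups, gene lists and tests were chosen with earlier results of these data known. The genes named were the main members of each group, members that met the fold rule, had an unadjusted p under 0.05 or lay beyond 0.58 on average, and the member with the smallest spread in each group. Probe sets singled out for sides that did not overlap, for 1 direction in all 3 embryos or for disagreement within a gene were chosen after their values were seen. So were the adaptors, regulators and relatives named outside the fold rule. Promoter letters were searched with Python 3.11.15 in RefSeq windows. The fit was tested on simulated data. Alternatives were quantile and median scaling, 50 added to each signal, other signal limits, no term for embryo, no trend, other fold limits, the average over a gene's probe sets and each embryo left out in turn.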

Additional observations from a re-analysis of the deposited data

How the results depend on the processing

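By limma, 0 member probe sets had an adjusted p under 0.05 in any of the 11 alternatives, the fit with no replicate block (no term for embryo) included. At an unadjusted p under 0.05 from limma there were 0 to 8 of them, against 1, and the 8 came without embryo 3. The share over all probe sets was taken only for the main fit (3.40%). The 0 to 8 can therefore not be read as a result about the motors. The 1 member by the fold rule higher on the right, Kif2c, became 5 with no signal limit, 0 with a mean signal of at least 200, 0 with a highest signal of at least 500 and 0 when 1.5-fold was asked in all 3 embryos. It was 0 to 3 with an embryo left out: 0 without embryo 1, 0 without embryo 2, and 3 (Kif2c, Kif1b and Kif1c) without embryo 3, where 1070 of all 21853 met it. Those higher on the left went from 0 to 5 with no signal limit, a setting in which 2805 of 45037 probe sets met the rule on the right and 1696 on the left, beside 5 and 5 of 139 members. The median of the dynactin subunits, 0.0083, was -0.078 under median scaling, -0.047 with the mean of all tested probe sets of a gene, and -0.037 to 0.031 with an embryo left out. The median of the other kinesins, 0.16, was -0.10 with no signal limit and 0.037 to 0.27 with an embryo left out. The median of the mitotic kinesins was -0.31 to 0.66 with an embryo left out, and 1.04 with a mean signal of at least 200, which keeps fewer genes. The 41 member probe sets with an interval within 1.5-fold (26.9% of all tested probe sets) became 21 without a variance trend (15.3%). They were 11 to 45 with an embryo left out (6.57% to 25.9%), 33 with no replicate block (19.3%) and 32 with median scaling (19.4%). These interval counts were added after the data were seen. For the 36 named values, 24 of 384 alternative values had another sign, 8 of them by scaling in members of at most 0.081 in size, and the smallest adjusted p was 0.917. The cause was not tested. Probe sets near 200, as for the mitotic kinesins, carry the widest intervals.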
